A study of Mus musculus with 62 samples.

Results

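Immediate-early response genes are transcribed within minutes of a stimulus from transcription factors that the cell already holds. The 10 described here are *Egr1*, *Egr2*, *Egr3*, *Fos*, *Fosl1*, *Ier3*, *Maff*, *Myc*, *Nr4a1* and *Klf6*. They were chosen by name, and were found in the table of counts per transcript by the GENCODE M21 identifier of each transcript. All 10 were present, with 20 transcripts, among 10476 gene names in the table. For each gene the transcript with the highest mean count is described.

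In resting cells these genes are nearly silent or held at a low level. Growth factors act through Ras and ERK on ternary complex factors, which stand beside serum response factor (SRF) on the CArG box, and cyclic AMP and calcium act through CREB on the cyclic AMP response element (CRE). The mRNAs are short-lived, in part because of AU-rich elements in the 3′ untranslated region (UTR), so that their level follows recent signalling. In the heart the genes are known to respond to stretch and adrenergic stimulation, and in myoblasts to serum. *Egr1*, *Egr2* and *Egr3* encode zinc finger transcription factors, *Fos* and *Fosl1* encode partners of JUN in AP-1, *Maff* encodes a small MAF protein that lacks a transactivation domain, *Myc* encodes a driver of growth and ribosome synthesis, *Nr4a1* encodes an orphan nuclear receptor, *Klf6* encodes a Krüppel-like factor, and *Ier3* encodes a regulator of survival signalling.

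The study asked how RPL3L, a paralog of the ribosomal protein RPL3 found in heart and skeletal muscle, affects translation. RNA-seq, which measures mRNA abundance, and Ribo-seq, which sequences the mRNA fragments covered by translating ribosomes, were performed on the heart of 4 WT and 4 *Rpl3l* KO mice. All mice were C57BL/6J males at 10 weeks of age, and the KO allele lacks exon 2 after CRISPR-Cas9 editing of zygotes. Both assays were also performed on 3 cultures each of C2C12 cells, a mouse myoblast line, that had received a retrovirus with no insert (control), with RPL3 (RPL3 OE) or with RPL3L (RPL3L OE). All C2C12 groups carried the pCX4/puro vector and had been selected with puromycin, and were kept at low confluence. The labels do not say whether the cultures of a group came from separate infections, so that p-values measure the spread between these samples.

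Total counts per library were between 3594696 and 29746110 for RNA-seq and between 1606700 and 6093268 for Ribo-seq. *Rpl3l* mRNA lay between 490 and 717 CPM (read count scaled by library size with TMM) in WT hearts and between 32.3 and 54.8 CPM in KO hearts, at or below 0.626 CPM in control and RPL3 OE cells, and between 1535 and 1571 CPM in RPL3L OE cells. The summed level of 8 cardiomyocyte markers was at least 60620 CPM in every heart and at most 192 CPM in control C2C12 cells. Of 5 measured myoblast markers, 2 (*Myod1* and *Cdh15*) were at 0 in heart RNA-seq. In heart Ribo-seq each of the 5 had counts in both genotypes. The 5 together did not separate the samples as clearly. They summed to 2566 to 2843 CPM in WT and 2495 to 2940 CPM in KO heart RNA-seq, against 3890 to 4020 CPM in control C2C12 cells. Some hearts held airway RNA. The summed RNA-seq level of 7 airway genes was 654 and 168 CPM in WT replicates 2 and 4 and 1580 and 2168 CPM in KO replicates 1 and 3, against at most 5.62 CPM in the other hearts. In Ribo-seq the airway genes were high in KO replicates 1 and 2 instead (3072 and 4179 CPM) and at 1.499 CPM in KO replicate 3, so that the numbers of KO replicates 2 and 3 went against each other between the assays. Comparisons of genotypes that do not use the number are not touched by this, since both are KO. Correlations by number are given with and without them, and fits with the number as a block only with them. These are bulk samples, in which fewer cells of a type and less RNA per cell cannot be told apart.

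Promoter sequence was read to show which of these elements stand before the members. RefSeq windows on GRCm38.p6 were matched by symbol for 6 members, namely *Fos*, *Nr4a1*, *Egr2*, *Maff*, *Ier3* and *Klf6*, and those of *Egr3*, *Fosl1* and *Myc* were not used here. The 250 bases before the start site of 4 of them are printed because they hold a full CRE (*Maff*), a CArG box (*Egr2*) or the short core of the CRE (*Fos* and *Nr4a1*). Capitals mark TGACG or its reverse complement CGTCA (the core of the CRE), the full CRE TGACGTCA, the CArG box and the TATA box TATAAA. All lie on the plus strand, at chr12:85473640-85473889 (*Fos*), chr15:101266596-101266845 (*Nr4a1*), chr10:67537619-67537868 (*Egr2*) and chr15:79347270-79347519 (*Maff*).
Fos: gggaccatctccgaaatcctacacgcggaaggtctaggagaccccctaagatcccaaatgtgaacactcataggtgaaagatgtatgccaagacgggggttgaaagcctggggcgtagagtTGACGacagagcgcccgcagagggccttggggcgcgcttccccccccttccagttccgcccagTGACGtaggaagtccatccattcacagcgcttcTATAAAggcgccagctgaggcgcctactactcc
Nr4a1: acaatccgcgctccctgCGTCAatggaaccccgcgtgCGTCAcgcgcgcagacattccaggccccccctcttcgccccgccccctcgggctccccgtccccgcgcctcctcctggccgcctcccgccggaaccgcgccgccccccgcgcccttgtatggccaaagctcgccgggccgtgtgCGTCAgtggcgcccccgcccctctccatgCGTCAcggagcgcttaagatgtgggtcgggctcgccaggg
Egr2: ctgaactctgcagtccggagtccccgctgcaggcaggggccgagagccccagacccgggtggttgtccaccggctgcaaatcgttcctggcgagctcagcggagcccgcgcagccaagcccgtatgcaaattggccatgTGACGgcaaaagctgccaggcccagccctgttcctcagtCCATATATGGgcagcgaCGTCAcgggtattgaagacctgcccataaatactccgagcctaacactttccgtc
Maff: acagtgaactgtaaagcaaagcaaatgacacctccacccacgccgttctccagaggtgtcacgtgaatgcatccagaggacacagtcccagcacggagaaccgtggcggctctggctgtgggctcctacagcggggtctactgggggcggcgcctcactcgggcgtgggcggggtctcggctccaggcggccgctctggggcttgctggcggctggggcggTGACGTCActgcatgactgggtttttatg

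*Fos* held TGACG at -129 and -66 and TATAAA at -33 from the start site, and *Nr4a1* held the reverse complement of TGACG at -233, -213, -69 and -40. *Egr2* held TGACG at -111, its reverse complement at -55 and a CArG box from -72 to -63. *Maff* held the full CRE from -29 to -22, which overlaps 2 matches to TGACG. On both strands of 32851 promoter windows, TGACG was found in 17.8%, TGACGTCA in 1.55%, the CArG box in 1.47% and TATAAA in 12.4%. *Ier3* and *Klf6* held none of these 4 motifs in their windows. *Klf6* and *Maff* held the E-box CACGTG, which was found in 6.02% of windows, and the AP-1 site TGACTCA (4.46% of windows) was in none of the 6. A match describes these letters only.

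The 3′ UTR of each of the 9 members other than *Egr1* held the pentamer ATTTA, the core of AU-rich elements, more densely than the median transcript. *Ier3* held 8.16 per kb of 3′ UTR (percentile 97.6 of 9692 transcripts), *Nr4a1* 5.53 (93.6), *Fos* 4.91 (91.8) and *Myc* 4.29 (88.8), against a median of 1.15 per kb. *Fosl1* was the lowest of the 9, with 1.57 per kb (percentile 57.3). The 30 bases of *Fos* richest in the pentamer, shown as the example with overlapping copies in capitals, read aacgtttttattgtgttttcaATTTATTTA.

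Levels of the members were read first in WT heart and control C2C12 cells. Levels of different genes are compared as RNA-seq CPM per kb of coding region. In control C2C12 cells *Fosl1* was the highest at 138 ± 3.83 (SD, n = 3), followed by *Klf6* at 65.4 ± 1.18, *Ier3* at 55.65 ± 0.918, *Myc* at 37.0 ± 0.427, *Egr1* at 20.0 ± 0.265 and *Maff* at 17.96 ± 0.537. *Egr3* (9.69), *Nr4a1* (7.59), *Egr2* (2.52) and *Fos* (0.868) were lower. In WT hearts *Ier3* was the highest at 56.8 ± 12.6 (SD, n = 4), followed by *Nr4a1* at 45.4 ± 26.9, *Egr1* at 24.2 ± 22.1, *Klf6* at 20.6 ± 3.98 and *Fos* at 17.5 ± 15.2. *Maff* (3.62), *Myc* (1.91), *Egr2* (0.723) and *Egr3* (0.523) were lower, and *Fosl1* was at 0. The spread of *Nr4a1*, *Egr1* and *Fos* between WT hearts was so large that the ranges of neighbours in this order overlap.

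**Figure D1:**
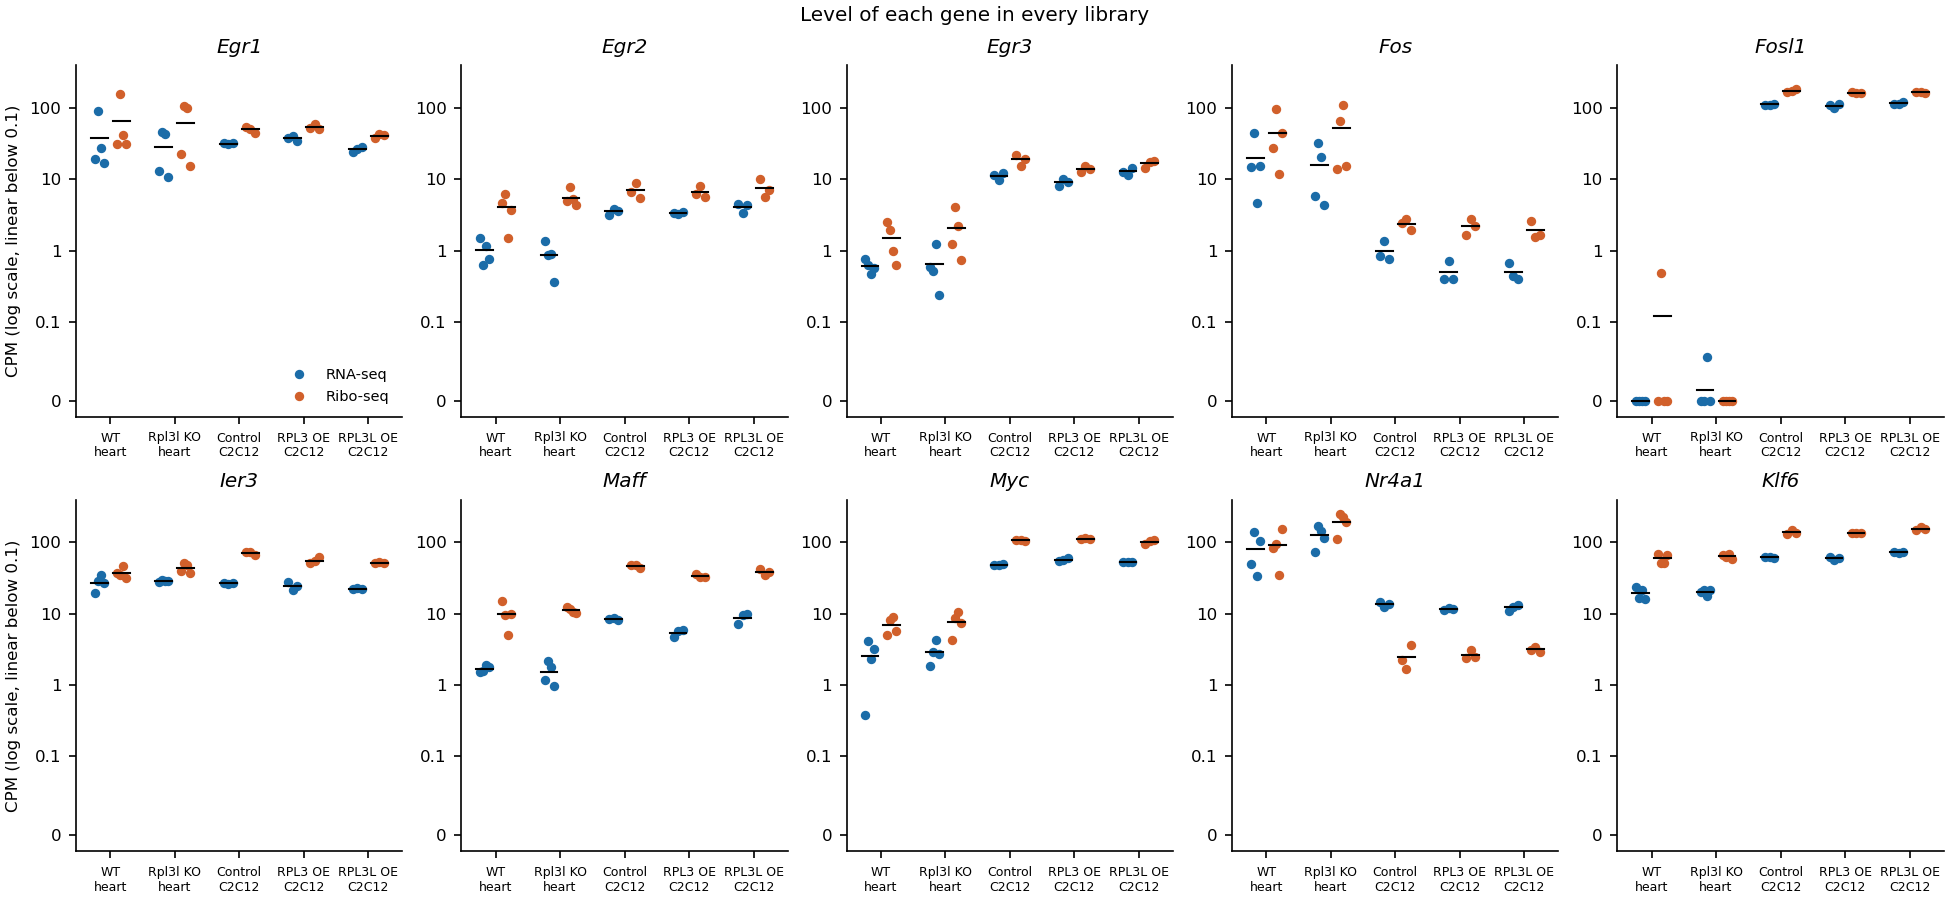
Level of each gene in CPM (log scale, linear below 0.1) in every RNA-seq library (blue) and Ribo-seq library (orange), by group; bars are group means. *Fos* and *Nr4a1* sat higher in all hearts than in all C2C12 cultures, *Fosl1*, *Myc* and *Egr3* sat lower, and the hearts of a genotype scattered more widely than the cultures of a group for *Egr1*, *Fos* and *Nr4a1*.

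Of the 10 members, 6 had higher and 2 had lower mRNA in control C2C12 cells than in WT heart, and 80.7% of all 15835 transcripts tested were called in this comparison (41% higher and 39.7% lower), so that the counts of members are near the background. A call is an adjusted p-value (Benjamini-Hochberg, over all transcripts tested) under 0.05 in the quasi-likelihood test of edgeR. With library totals in place of TMM all log2 fold changes of this comparison shift by 0.75 in RNA-seq, 0.40 in Ribo-seq and -0.37 in TE, and the share of calls that are higher goes from 50.8% to 67.3%, from 50.2% to 60.6% and from 52.6% to 29%. The direction of every call given here held under both scalings.

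*Fosl1* (ENSMUST00000025850.6, chromosome 19 from 5447547 to 5455946) separated the samples most clearly. It had 112, 110 and 116 CPM of mRNA in control C2C12 cells and 0 counts in all 4 WT hearts, and was thus at least 98-fold higher in the cells, taking 3 counts per library as the floor. In Ribo-seq it was at 169, 174 and 186 CPM in control cells and had 1 count in a single WT heart, at least 93-fold higher. *Myc* (ENSMUST00000159327.1, chromosome 15 from 61985564 to 61990374) had 48.6, 48.3 and 49.4 CPM of mRNA in control cells and between 0.380 and 4.09 CPM in WT hearts, a log2 fold change of 4.12 (standard error 0.238, edgeR adjusted p = 1.52e-09). *Egr3* (ENSMUST00000225200.1, chromosome 14 from 70077314 to 70082550) had 11.6, 9.97 and 12.2 CPM in control cells and at most 0.759 CPM in WT hearts (log2 fold change 4.23 ± 0.305, standard error). The groups did not overlap for these 3 genes in either assay.

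*Maff* (ENSMUST00000096350.10, chromosome 15 from 79347520 to 79359076), *Klf6* (ENSMUST00000000080.7, chromosome 13 from 5861482 to 5870394) and *Egr2* (ENSMUST00000048289.13, chromosome 10 from 67537869 to 67542188) also had higher mRNA in control C2C12 cells, with log2 fold changes of 2.25, 1.68 and 1.88. In Ribo-seq, where 83.2% of 14250 transcripts were called (41.8% higher and 41.4% lower), 7 members were higher and 2 lower in control C2C12 cells. *Myc* (3.99), *Egr3* (3.54), *Maff* (2.20) and *Klf6* (1.24) again had positive log2 fold changes. The footprints of *Ier3* (ENSMUST00000003635.6, chromosome 17 from 35821684 to 35822923) were higher in the cells too, with a log2 fold change of 0.93 (standard error 0.112, edgeR adjusted p = 9.21e-07), at 72.8, 73.55 and 65.55 CPM against 31.3 to 47.2 CPM. The Ribo-seq call of *Egr2* (0.78, edgeR adjusted p = 0.045) was lost without WT replicate 1 (0.0523), 3 (0.132) or 4 (0.0862) and without control replicate 1 (0.061) or 2 (0.145).

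*Fos* and *Nr4a1* were the members with more mRNA in the heart. *Fos* (ENSMUST00000021674.6, chromosome 12 from 85473890 to 85477273) had 0.841, 1.37 and 0.758 CPM in control C2C12 cells and 14.8, 45.0, 4.69 and 15.4 CPM in WT hearts, a log2 fold change of -4.34 (standard error 0.595, edgeR adjusted p = 1.2e-05). *Nr4a1* (ENSMUST00000023779.7, chromosome 15 from 101266846 to 101274795) had 14.75, 12.6 and 13.7 CPM in control cells and 50.1, 139, 34.2 and 105 CPM in WT hearts, a log2 fold change of -2.61 (standard error 0.36, edgeR adjusted p = 1.3e-05). All hearts lay above all cultures for both genes. In Ribo-seq the log2 fold changes were -4.17 for *Fos* and -5.14 for *Nr4a1*. Without the 2 WT hearts that held airway RNA the log2 fold change of *Nr4a1* mRNA was -1.62 and that of its footprints -4.62, both still called.

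*Egr1* (ENSMUST00000064795.5) did not pass the test between control C2C12 cells and WT heart. It had 32.3, 31.4 and 32.0 CPM of mRNA in control cells and 19.4, 91.2, 27.2 and 17.0 CPM in WT hearts (log2 fold change -0.23, standard error 0.418, edgeR adjusted p = 0.626). The sign rested on WT replicate 2. Without that heart *Egr1* was higher in the cells by 0.60 in RNA-seq (edgeR adjusted p = 0.00351) and by 0.55 in Ribo-seq (0.00137), and with library totals the values were 0.54 and 0.05. *Ier3* mRNA also lay near equality, at -0.06 (standard error 0.152), and its sign turned to 0.03 without WT replicate 3 and, as a call, to 0.69 with library totals (standard error 0.175, edgeR adjusted p = 0.00262).

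Footprints relative to mRNA set *Nr4a1* and *Maff* apart from the other members. The log2 ratio of mean Ribo-seq CPM to mean RNA-seq CPM of *Nr4a1* was -2.46 in control C2C12 cells (percentile 0.8 of 5306 genes), -2.13 in RPL3 OE cells and -1.96 in RPL3L OE cells (percentiles 1.5 and 1.9), whereas it was 0.17 in WT heart and 0.63 in KO heart (percentiles 40.7 and 58.6). The medians of all genes lay between 0.38 and 0.44 in these groups. *Nr4a1* footprints rested on 6 to 22 counts per C2C12 library and its mRNA on 111 to 506 counts. *Maff* stood at the other end in the cells, with 2.48, 2.64 and 2.13 in control, RPL3 OE and RPL3L OE cells (percentiles 98.6, 99.1 and 98.7), and with 2.89 in KO heart (97.8).

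Translation efficiency (TE), tested as the interaction of group and assay, differed between control C2C12 cells and WT heart for 3 of 10 members, and 47.9% of 13989 transcripts were called (25.2% higher and 22.7% lower). *Nr4a1* TE was lower in control C2C12 cells, with a log2 fold change of -2.54 (standard error 0.798, edgeR adjusted p = 0.0127). Without the libraries of control replicate 1 its value was -2.40 with an edgeR adjusted p of 0.0584. *Ier3* TE was higher in control cells by 1.01 (standard error 0.195, edgeR adjusted p = 0.000271), and by 0.64 with library totals. *Klf6* TE was lower by 0.44 (edgeR adjusted p = 0.0446), a call lost without WT replicate 4 (0.249) or any of control replicates 1, 2 and 3 (0.172, 0.0879 and 0.129). With both libraries of a number taken as a pair, the same 3 members were called.

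**Figure D2:**
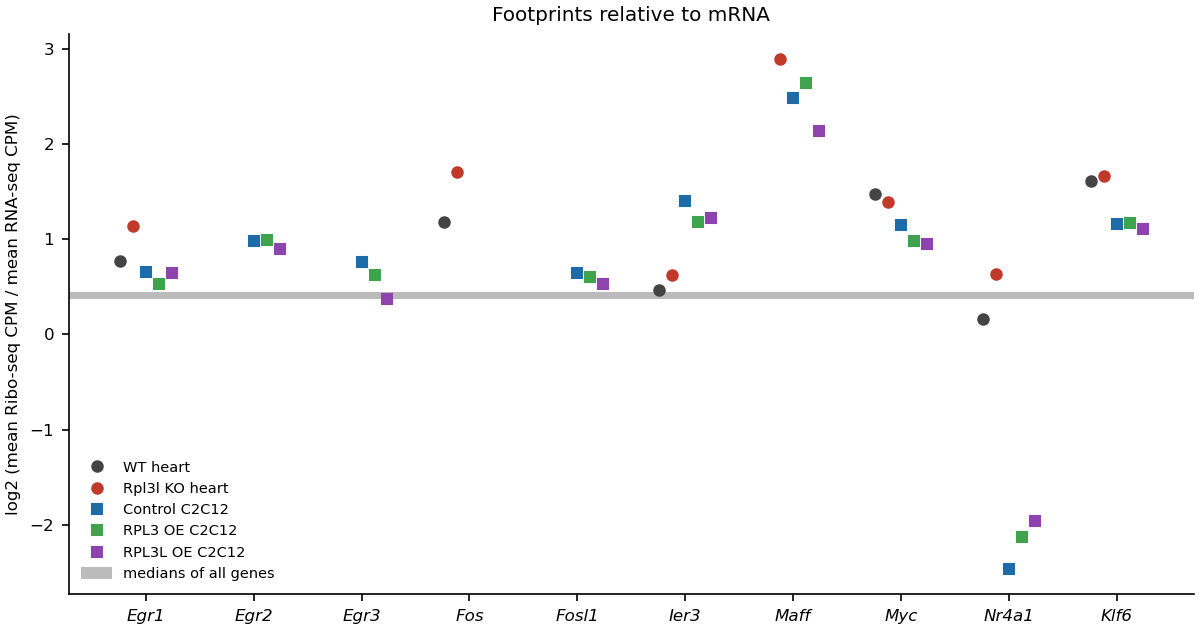
Log2 ratio of the mean Ribo-seq CPM to the mean RNA-seq CPM of each gene in each of the 5 groups, with the range of the medians of all genes as a grey band; ratios of group means carry no error bar, and genes with a mean count under 10 in a group are not drawn. *Nr4a1* lay near the band in both hearts and between -2.46 and -1.96 in C2C12 cells, and *Maff* lay above 2 wherever it was drawn.

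The C2C12 comparison of RPL3L OE with control cells asked what RPL3L does when added to cells that lack it. *Klf6* and *Myc* mRNA rose and *Egr1* mRNA fell in RPL3L OE cells, by small amounts, and the other 7 members did not pass the test. The count of 3 of 10 members called stands beside 9.26% of all 14432 transcripts (4.65% higher and 4.61% lower). *Klf6* had 63.15, 62.8 and 61.1 CPM in control cells and 73.5, 69.9 and 73.6 CPM in RPL3L OE cells, without overlap (log2 fold change 0.26, standard error 0.05, edgeR adjusted p = 0.000149). *Egr1* had 32.3, 31.4 and 32.0 CPM in control cells and 23.9, 26.5 and 28.6 CPM in RPL3L OE cells (log2 fold change -0.23, standard error 0.073, edgeR adjusted p = 0.0291). *Myc* had 48.6, 48.3 and 49.4 CPM in control cells and 53.5, 52.4 and 53.9 CPM in RPL3L OE cells (log2 fold change 0.17, standard error 0.054, edgeR adjusted p = 0.0397). The groups did not overlap for either of these genes.

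The *Klf6* call held in every fit run with 1 library left out, and those of *Egr1* and *Myc* did not. *Egr1* had an edgeR adjusted p of 0.0648 without control replicate 1, 0.0624 without control replicate 3, 0.214 without RPL3L OE replicate 1 and 0.0846 without RPL3L OE replicate 2. *Myc* had one between 0.0616 and 0.142 without any of the 3 control or 3 RPL3L OE replicates. *Ier3* (log2 fold change -0.21, edgeR adjusted p = 0.0697), *Egr3* (0.23, 0.198), *Fos* (-0.89, 0.216), *Fosl1* (0.08, 0.24), *Egr2* (0.25, 0.484), *Nr4a1* (-0.11, 0.576) and *Maff* (0.12, 0.657) did not pass. *Fos* mRNA rested on 5 to 28 counts per library in these 2 groups. The median log2 fold change of the 10 members was 0.10, against -0.002 over all transcripts.

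RPL3 OE cells showed a different set of members called against the same control cultures, which the comparisons share. *Egr1* and *Myc* mRNA rose and *Maff* mRNA fell, 3 of 10 members beside 16.1% of all transcripts (8.12% higher and 7.96% lower). *Maff* had 8.41, 8.65 and 8.15 CPM in control cells and 4.65, 5.64 and 5.92 CPM in RPL3 OE cells, without overlap (log2 fold change -0.57, standard error 0.144, edgeR adjusted p = 0.00242). *Egr1* had 37.7, 40.7 and 34.6 CPM in RPL3 OE cells, all above the control cells (0.28, standard error 0.068, edgeR adjusted p = 0.00173). *Myc* had 55.5, 57.1 and 59.9 CPM, all above the control cells (0.28, standard error 0.053, edgeR adjusted p = 3.6e-05). *Klf6* had 63.0, 57.4 and 60.8 CPM with a log2 fold change of 0.00 (standard error 0.051), whose sign turned with the filter and the scaling. These 3 calls held in every fit with 1 library left out.

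RPL3L OE and RPL3 OE cells were also compared directly, and here 4 of 10 members differed, beside 27% of all transcripts (13% higher and 14.1% lower). *Egr1* was lower in RPL3L OE cells by 0.51 on the log2 scale (standard error 0.077, edgeR adjusted p = 2.3e-07), at 23.9 to 28.6 CPM against 34.6 to 40.7 CPM. *Maff* was higher by 0.69 (standard error 0.156, edgeR adjusted p = 4e-04), at 7.18 to 9.74 CPM against 4.65 to 5.92 CPM. *Egr3* was higher by 0.49 (standard error 0.127, edgeR adjusted p = 0.00186), at 11.7 to 14.65 CPM against 8.19 to 10.2 CPM, and *Klf6* was higher by 0.26 (edgeR adjusted p = 0.000159). The groups did not overlap for any of the 4, and each call held with any library left out. The *Myc* difference of -0.12 (standard error 0.057, edgeR adjusted p = 0.122) did not pass.

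**Figure D3:**
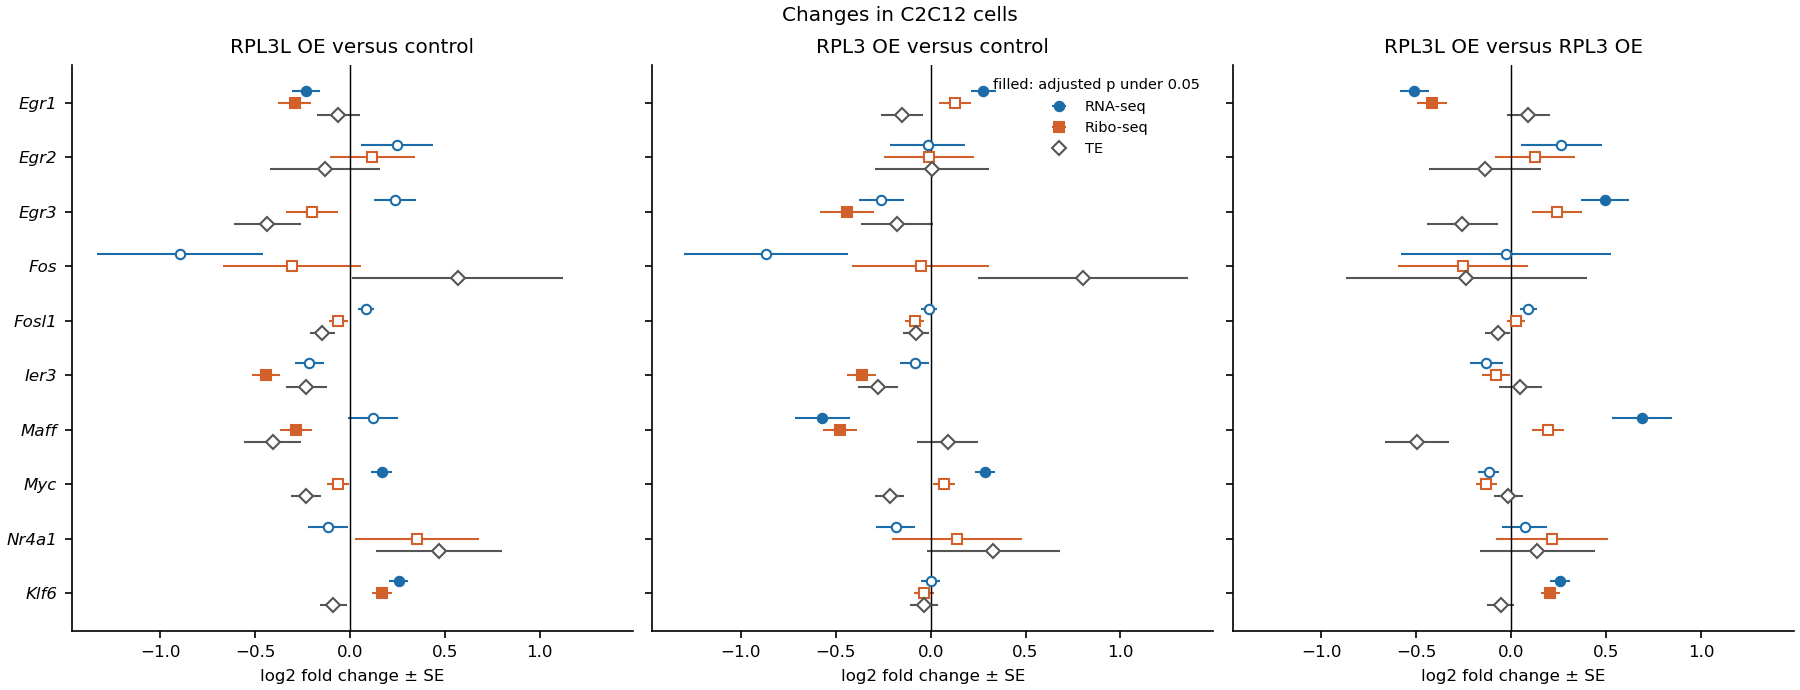
Log2 fold change with its standard error for each gene in the 3 comparisons of C2C12 groups, in RNA-seq (circles), Ribo-seq (squares) and TE (diamonds), with filled symbols for an edgeR adjusted p under 0.05. Called changes were at most 0.69 in size, *Egr1* was below 0 in both assays in RPL3L OE against control and against RPL3 OE cells, and 0 TE values were filled.

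Ribosome footprints in C2C12 cells gave a partly different set of calls. In RPL3L OE against control cells *Klf6* rose and *Egr1*, *Ier3* and *Maff* fell, 4 of 10 members beside 11.1% of 13802 transcripts (5.38% higher and 5.69% lower). With library totals 64.9% rather than 48.6% of all calls were higher. *Ier3* had 72.8, 73.55 and 65.55 CPM in control cells and 51.4, 53.8 and 50.9 CPM in RPL3L OE cells, without overlap (log2 fold change -0.44, standard error 0.074, edgeR adjusted p = 6.88e-05), and this call held with any library left out. *Egr1* fell by 0.29 (standard error 0.086, edgeR adjusted p = 0.0229), from 45.4 to 54.7 CPM in control cells to 38.7 to 43.2 CPM. *Maff* fell by 0.28 (standard error 0.085, edgeR adjusted p = 0.0245), from 43.2 to 48.6 CPM to 35.4 to 42.5 CPM. *Klf6* rose by 0.17 (standard error 0.053, edgeR adjusted p = 0.0315), from 133 to 149 CPM to 151 to 163 CPM.

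These last 3 calls depended on single libraries. The edgeR adjusted p of *Egr1* footprints was 0.205 without control replicate 1, 0.0536 without control replicate 2, 0.0902 without RPL3L OE replicate 1 and 0.0573 without RPL3L OE replicate 3. That of *Maff* was 0.126 and 0.0824 without control replicates 1 and 2, and 0.119 and 0.0775 without RPL3L OE replicates 2 and 3. That of *Klf6* was 0.207 and 0.119 without control replicates 1 and 3, and 0.168 and 0.0545 without RPL3L OE replicates 2 and 3. The second *Klf6* transcript, with a coding region of 258 bases, had a log2 fold change of 0.14 in Ribo-seq and did not pass (edgeR adjusted p = 0.579).

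In RPL3 OE against control cells *Ier3*, *Maff* and *Egr3* footprints fell and 0 members rose, 3 of 10 beside 10.6% of all transcripts (5.9% lower). With library totals 57.7% rather than 44.3% of all calls were higher. *Ier3* had 50.9, 54.1 and 61.7 CPM, all below the control cells (-0.36, standard error 0.075, edgeR adjusted p = 0.000843). *Maff* had 35.7, 32.9 and 32.6 CPM, all below the control cells (-0.48, standard error 0.089, edgeR adjusted p = 0.000253). *Egr3* had 12.8, 15.45 and 14.2 CPM against 22.3, 15.6 and 19.3 CPM, with the ranges nearly touching (-0.44, standard error 0.143, edgeR adjusted p = 0.0406). The *Egr3* call was lost without control replicate 1 (0.331) or 3 (0.0837) and without RPL3 OE replicate 1 (0.158) or 3 (0.0639), and those of *Ier3* and *Maff* held with any library left out.

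Between RPL3L OE and RPL3 OE cells, where 18.9% of transcripts were called in Ribo-seq (9.59% higher and 9.27% lower), 2 of 10 members differed. *Egr1* footprints were lower in RPL3L OE cells by 0.42 (standard error 0.079, edgeR adjusted p = 0.000165), at 38.7 to 43.2 CPM against 50.5 to 60.5 CPM. *Klf6* footprints were higher by 0.20 (standard error 0.05, edgeR adjusted p = 0.00313), at 151 to 163 CPM against 135 to 137 CPM, without overlap. The second *Klf6* transcript had a log2 fold change of 0.08 and did not pass (edgeR adjusted p = 0.712). *Maff* (0.19, edgeR adjusted p = 0.112) and *Egr3* (0.24, 0.229), whose mRNA was higher in RPL3L OE cells, did not pass in Ribo-seq.

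TE changed for 0 of 10 members in RPL3L OE against control cells, 0 in RPL3 OE against control cells and 0 in RPL3L OE against RPL3 OE cells by edgeR, beside 2.08%, 0.052% and 0.305% of 13457 transcripts. With library totals 73.6% rather than 54.3% of the TE calls in RPL3L OE against control cells were higher. At an unadjusted p under 0.05 there were 5, 2 and 1 members, beside 2053, 1054 and 1214 of the 13457 transcripts. The 5 in RPL3L OE against control cells were all below 0, namely *Egr3* (-0.43), *Maff* (-0.41), *Myc* (-0.23), *Ier3* (-0.23) and *Fosl1* (-0.15), with edgeR adjusted p-values between 0.0912 and 0.279. *Maff* passed there without the libraries of RPL3L OE replicate 1 (-0.59, edgeR adjusted p = 0.0316). DESeq2 also gave 0 members in each of the 3 comparisons.

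The genes around the members were described by lists. Of 18 upstream receptors, kinases and transcription factors, 0 were called in RNA-seq of RPL3L OE against control cells, beside 9.26% of all transcripts, and 2 in RPL3 OE against control cells, beside 16.1%, both receptors for growth factors (*Egfr*, log2 fold change 0.76, and *Pdgfrb*, 0.51). In RPL3L OE against RPL3 OE cells 1 of the 18 was higher and 3 were lower, beside 27% of all transcripts called, among them *Egfr* (-0.63), *Pdgfrb* (-0.56) and the coactivator gene *Ep300* (0.29). Of 10 feedback inhibitors, which remove the phosphate from MAP kinases or bind to Ras signalling, 0 were called in RPL3L OE cells and 5 fell in RPL3 OE cells, among them the phosphatase genes *Dusp2* (-0.84), *Dusp10* (-0.51) and *Dusp4* (-0.42). In RPL3L OE against RPL3 OE cells 6 of these 10 were higher and 1 was lower. The 8 tested transcription factors of the same class gave 1 call in each comparison with control cells, *Bhlhe40*, a repressor of the circadian clock (0.33 with RPL3L and 0.40 with RPL3).

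Of the listed genes that SRF drives through actin and MRTF, rather than through ERK, most were called higher. With RPL3L 8 of 10 rose and with RPL3 7 of 10 rose, and 0 fell, with medians of 0.31 and 0.14 against -0.002 and -0.001 over all transcripts. Of all transcripts, 4.65% rose and 4.61% fell with RPL3L and 8.12% rose and 7.96% fell with RPL3, which is the background also for the other lists here. The lists were chosen with earlier results of these data known, so that their shares are a description and no test. Directly between RPL3L OE and RPL3 OE cells, where 13% of all transcripts were higher and 14.1% lower, 4 of these 10 were higher and 2 were lower with RPL3L (median 0.08). Examples were *Myl9*, a myosin light chain (0.84 and 0.76), and *Cnn1*, the contractile protein calponin (0.77 and 1.47). Of 19 secreted and signalling products, 4 rose and 1 fell with RPL3L, and 4 rose and 3 fell with RPL3. They included *Ccn2*, a matrix protein (0.81 and 1.35), *Thbs1*, thrombospondin (0.70 and 1.13), and *Ptgs2*, the inducible cyclooxygenase (1.43 in RPL3 OE cells), while the chemokine gene *Ccl2* fell in RPL3L OE cells (-0.84). Of 17 targets of MYC, 3 rose and 1 fell with RPL3L, and 4 rose with RPL3, by small amounts. *Polr1b*, a subunit of RNA polymerase I, changed by 0.21 with RPL3L, and *Odc1*, the ornithine decarboxylase, by -0.14 with RPL3L and 0.15 with RPL3. Of 12 targets of AP-1 and EGR proteins, 2 rose and 1 fell with RPL3L, and 4 rose and 2 fell with RPL3. Of 11 dimer partners of the members, 2 rose in RPL3L OE cells, *Bach1* (0.27) and *Atf4* (0.18).

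In Ribo-seq of the same cells, 2 of the 18 upstream genes were higher and 3 lower with RPL3L, and 2 were higher and 1 lower with RPL3, beside 11.1% and 10.6% of all transcripts called. They included *Nras* (0.24), the kinase gene *Rps6ka3* (0.23) and the receptor gene *Pdgfra* (-0.70) with RPL3L, and *Egfr* (0.50), *Pdgfrb* (0.48) and *Ep300* (-0.29) with RPL3. Between RPL3L OE and RPL3 OE cells 2 of the 18 were higher and 5 lower, beside 18.9% of all transcripts. In these libraries 6 of 10 SRF and actin targets rose with RPL3L and 4 with RPL3, and 3 of 9 and 5 of 9 feedback inhibitors fell. The 3 in RPL3L OE cells were *Dusp6* (-0.25), *Dusp4* (-0.24) and *Dusp5* (-0.23). In TE of RPL3L OE against control cells *Dusp4* (-0.36), *Ccn2* (-0.34), *Thbs1* (-0.31) and *Myl9* (-0.42) fell and *Nras*, the gene for a Ras protein, rose (0.31). Myoblast markers moved with the groups, with 4 of 5 higher in RPL3L OE cells (median 0.14) and 4 of 5 lower in RPL3 OE cells (median -0.44) in RNA-seq. Of 5 tested myotube markers, 0 were called with RPL3L and 2 were lower with RPL3 (median -0.48). Smooth muscle and pericyte markers were higher for 2 of 3 with RPL3L, *Cnn1* and *Cspg4*, and for 3 of 3 with RPL3, and *Cnn1* and *Pdgfrb* stand on this list as well as among the SRF and upstream genes. The 4 measured genes of that list summed to 68.6 to 73.3 CPM in control, 72.0 to 74.9 in RPL3L OE and 100.3 to 102.2 in RPL3 OE cells. The 8 measured fibroblast markers summed to 1495 to 1511, 1561 to 1591 and 2117 to 2132 CPM in RNA-seq in the same order. In Ribo-seq they summed to 2567 to 2775, 2488 to 2624 and 3405 to 3556 CPM, so that control and RPL3L OE cells overlapped. The collagen gene *Col1a1* was higher in RPL3L OE (0.31) and RPL3 OE cells (1.18) and *Col1a2* in RPL3 OE cells (0.58). The other genes of that list are not described singly here. Macrophage and leukocyte markers were near 0, with sums over 3 genes of at most 0.506 CPM in RNA-seq (*Adgre1* and *S100a8* at 0) and 2.20 CPM in Ribo-seq. The part of the myoblast, myotube, smooth muscle and fibroblast markers in the values of the members and lists was not tested.

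In the heart the comparison of *Rpl3l* KO with WT mice asked what loss of RPL3L does. By edgeR, 0 of 7 members passed the test in RNA-seq, Ribo-seq or TE, beside 0.013% of 15394 transcripts, 0.677% of 12695 and 0% of 12483. *Egr2*, *Egr3* and *Fosl1* had a mean count under 10 and were not tested. At an unadjusted p under 0.05 there were 0, 1 and 0 members, beside 352 of 15394, 2073 of 12695 and 803 of 12483 transcripts. DESeq2 gave 0 members in each. TE was tested with the RNA-seq and Ribo-seq libraries as independent samples. With the replicate number as a block, which pairs both libraries of a number, 0 members were called as well. Since the numbers of KO replicates 2 and 3 went against each other between the assays, that block may not pair the libraries of these hearts. No block fit was run without them or with their numbers exchanged. Of the 86 Ribo-seq calls 62.8% were higher, or 40% with library totals.

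*Nr4a1* was the member nearest to a call in the heart. Its footprints were at 84.7, 95.0, 34.6 and 153 CPM in WT hearts and at 113, 249.1, 225 and 190 CPM in KO hearts. The ranges overlap, since WT replicate 4 lay above KO replicate 1. The log2 fold change was 1.10 (standard error 0.313, edgeR adjusted p = 0.111), and for its mRNA 0.60 (standard error 0.324, edgeR adjusted p = 0.999). The mRNA was at 50.1, 139, 34.2 and 105 CPM in WT hearts and at 72.7, 167, 145 and 117 CPM in KO hearts. Without the hearts that held airway RNA, a choice made after the data had been seen, 2 KO and 2 WT hearts remained, and *Nr4a1* mRNA was higher in KO hearts by 1.74 (standard error 0.245, edgeR adjusted p = 5.75e-05). Its footprints were higher by 1.79 in the corresponding Ribo-seq fit, which did not pass (edgeR adjusted p = 0.11). By the airway level in each assay, KO replicates 1 and 3 were left out of RNA-seq and KO replicates 1 and 2 out of Ribo-seq. The KO replicate numbers thus differed between these fits.

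*Egr1* and *Fos* mRNA varied more between hearts of a genotype than between genotypes. *Egr1* was at 19.4, 91.2, 27.2 and 17.0 CPM in WT hearts and at 13.3, 46.2, 42.75 and 10.8 CPM in KO hearts (log2 fold change -0.42, standard error 0.494). *Fos* was at 14.8, 45.0, 4.69 and 15.4 CPM in WT hearts and at 5.91, 32.3, 20.9 and 4.42 CPM in KO hearts (-0.29, standard error 0.563). The highest hearts were WT replicate 2 and KO replicates 2 and 3 for both genes, and the genotypes overlapped. Without WT replicate 2 the signs turned, to 0.43 for *Egr1* and 0.44 for *Fos*, and without the hearts that held airway RNA they were 0.26 and 0.97, none of them called. Airway RNA was high in WT replicate 2 and KO replicate 3, and also in KO replicate 1 and WT replicate 4, where *Egr1* was at 13.3 and 17.0 CPM. *Ier3* (0.06, standard error 0.162), *Klf6* (0.04, 0.173), *Myc* (0.18, 0.498) and *Maff* (-0.17, 0.497) did not pass either.

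The spread between hearts was measured as the highest over the lowest level in a group. In WT RNA-seq it was 9.60 for *Fos*, 5.36 for *Egr1*, 4.06 for *Nr4a1* and 10.8 for *Myc*, at percentiles 99.1, 97.4, 95.3 and 99.3 of 5868 genes, whose median was 1.53. *Myc* rested on 1 to 34 counts. In KO hearts it was 7.31 for *Fos* and 4.29 for *Egr1* (percentiles 97.7 and 94.9). Ribo-seq gave 7.96 and 5.13 in WT hearts and 7.86 and 7.11 in KO hearts for *Fos* and *Egr1*, all at percentile 99.3 or above. *Ier3* and *Klf6* behaved otherwise, with 1.07 and 1.20 in KO RNA-seq (percentiles 0.7 and 11.9) and 1.75 and 1.47 in WT RNA-seq. In control C2C12 cells the same ratio was 1.03 for *Egr1* and 1.02 for *Myc*.

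RNA-seq and Ribo-seq levels went together across hearts for *Egr1*, *Fos* and *Nr4a1*. Over the 8 hearts, matched by genotype and number and on the log2 CPM scale, Pearson's r was 0.98 for *Egr1* (exact permutation p = 9.92e-05, 0.000694 after Benjamini-Hochberg adjustment over 7 genes, Spearman's rho 0.976 with an exact permutation p of 0.000397). It was 0.93 for *Fos* (exact permutation p = 0.00352, adjusted 0.0123, rho 0.857 with an exact permutation p of 0.0107) and 0.88 for *Nr4a1* (exact permutation p = 0.00888, adjusted 0.0207, rho 0.857 with an exact permutation p of 0.0107). Without the 2 hearts farthest from the median in RNA-seq, r was 0.98, 0.87 and 0.55, so that it fell most for *Nr4a1*. Leaving out the farthest hearts narrows the range, and these values over 6 hearts were not tested. Without KO replicates 2 and 3, 6 hearts gave 0.99, 0.98 and 0.81, with exact permutation p-values of 0.00556, 0.0167 and 0.0722 and adjusted values of 0.0389, 0.0583 and 0.169, so that only *Egr1* passed there.

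*Ier3* (r = 0.46, exact permutation p = 0.221), *Myc* (0.60, 0.126), *Klf6* (0.01, 0.968) and *Maff* (-0.25, 0.579) did not pass over the 8 hearts, with adjusted values of 0.31, 0.22, 0.968 and 0.676 and rho of 0.667, 0.619, -0.024 and -0.333. Within the 4 hearts with or the 4 without airway RNA there were too few samples for a correlation.

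**Figure D4:**
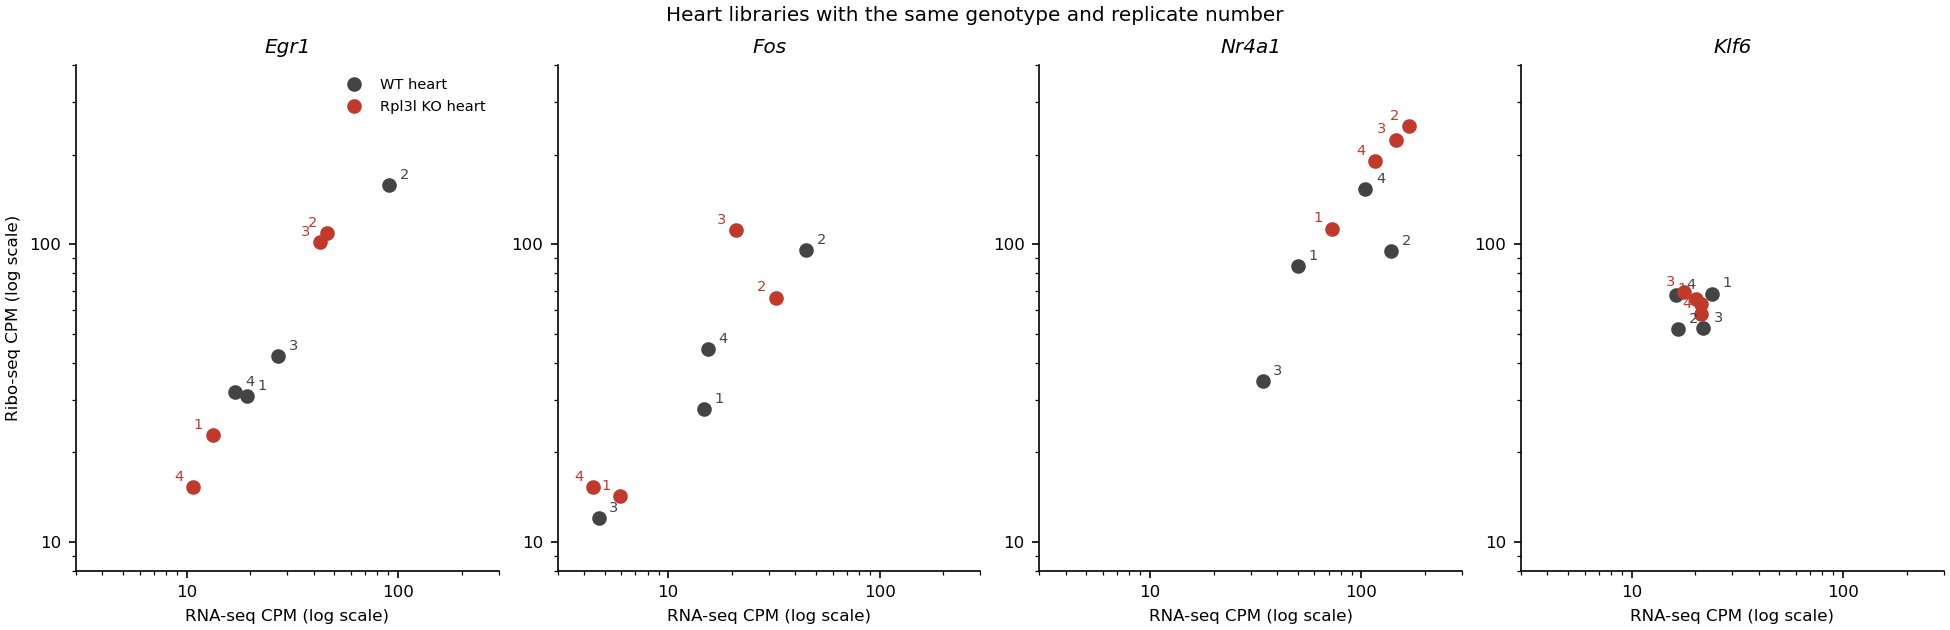
Ribo-seq against RNA-seq level in CPM (log scales) of *Egr1*, *Fos*, *Nr4a1* and *Klf6* in the 4 WT (grey) and 4 *Rpl3l* KO (red) hearts, each point labelled with its replicate number. *Egr1* spans 10.8 to 91.2 CPM in RNA-seq and 15.3 to 159 CPM in Ribo-seq along a single line, whereas the *Klf6* points lie together.

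Among the related genes in the heart, 0 of every list was called in RNA-seq and TE by edgeR. In Ribo-seq *Jund*, an AP-1 partner of FOS (log2 fold change 0.55, edgeR adjusted p = 0.0307), *Klf2*, a Krüppel-like factor of endothelium (0.69, 0.044), and *Ccn2* (0.63, 0.0493) were higher in KO hearts. Of all 12695 transcripts 0.677% were called there. The calls of these genes lay near the threshold and were not examined under the alternative fits. The part of airway RNA in them was not tested. The blood markers were at 5604 to 9219 CPM in WT and 6440 to 13940 CPM in KO RNA-seq, and the 6 endothelial markers at 481 to 497 and 446 to 526 CPM. Their part in the levels of the members was not tested.

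The genes most like the members were named by their correlation, across RNA-seq libraries, with the mean of the standardized members. In the 9 C2C12 libraries they were *Plcg2* (r = 0.96), *Arpc4* (0.95), *Nfkb2* (0.95), *Pmpca* (0.94) and *Rad23b* (0.94) of 5006 candidates. The members themselves did not move as a set there, with r of 0.81 for *Maff*, 0.80 for *Egr3* and 0.76 for *Fosl1* but -0.56 for *Egr1* and -0.57 for *Myc*. In the 8 heart libraries the most alike were *Zmym6* (0.93), *Rtp4* (0.93), *2410002F23Rik* (0.92), *Khnyn* (0.92) and *Rnf167* (0.91) of 4914 candidates, and of 7 members *Egr1* was the closest to their mean (0.85) and *Klf6* the farthest (-0.44). Each member was part of the mean it was set against, which raises its r, whereas the other genes were not. The libraries of a group share a source, and these values describe likeness only.

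Disome-seq, which sequences the fragments covered by collided ribosomes, and m6A-seq were also deposited for the heart. Summed over the 4 hearts of a genotype, the members had between 0 and 20 disome counts, the most being 19 in WT and 20 in KO hearts for *Klf6*, 15 and 16 for *Ier3*, and 11 and 9 for *Nr4a1*. These counts are too low for a test, and 0 of the 3181 m6A peaks in the table lay on a member. By the paper's methods, m6A reads were counted at coding-region peaks shared by the replicates of each genotype. Absence from that list thus does not show that these mRNAs lack m6A.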

How the data were processed

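RNA-seq and Ribo-seq of heart and C2C12 cells, and disome-seq and m6A-seq of heart, were deposited by the authors. The authors made the table of read counts per transcript by trimming with cutadapt, removing rRNA reads, aligning with STAR (transcriptome GRCm38.p6, genome mm10, reads with several matches kept), removing duplicates with UMI-tools and counting with featureCounts, steps stated for Ribo-seq and not given separately for RNA-seq. RNA-seq libraries came from a directional (strand-specific) kit per the authors' methods, and for tool versions and the strand option of the counting the sources used here give nothing. Keeping such reads lets transcripts of a gene share reads, and transcripts with the same coding region had counts within 1% in 98.2% of 3485 pairs, so that the counts behave as coding-region counts. The m6A table was deposited with counts and with TPM (transcripts scaled to a fixed total) per peak, made by the authors with HOMER and bedtools, and only its list of peaks was used.

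Of 23877 distinct transcripts, 23662 were matched to GENCODE M21, and every one of these lay on the plus strand. Genes of the minus strand were not analysed here. Transcripts whose mean count reached 10 in the assay were tested with edgeR 4.0.16 (R 4.3.3), TMM scaling, quasi-likelihood F-test, two-sided, and Benjamini-Hochberg adjustment over all transcripts. TE was tested as an interaction term. Fits used all C2C12 groups, both heart genotypes, or control C2C12 and WT heart. For CPM across heart and C2C12 libraries TMM was computed within the assay. A group at the floor was given a bound from 3 counts per library. Alternatives were DESeq2 1.42.0, library totals, no filter or a mean of 50, the replicate block, 1 transcript per gene, the second transcript, and each library left out. Correlations used exact permutation tests (SciPy 1.17.1). In simulated data of the same sample sizes, 200 transcripts were changed by a log2 fold of 1.5. Of these, 83.5% (heart TE) to 99.5% (C2C12 Ribo-seq) were recovered. These shares are over all such transcripts and were not given for the members. In heart TE of KO against WT the standard errors of *Egr1* and *Fos* were 0.911 and 0.974. Recovery at such standard errors, or at a log2 fold below 1.5, was not tested. All 10 members were named, and of each other list up to 3 called genes with the largest change. Members and lists were chosen with earlier results of these data known. Depth limits precision, with the RNA-seq of WT heart replicate 1 the shallowest at 3594696 counts.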

Additional observations from a re-analysis of the deposited data

Results flagged for a closer look

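Among 38 groups of 4 hearts examined, the highest or lowest sample stood apart (a gap beyond Dixon's critical value) in 4. Chance alone gives about 5 percent of groups where values are normally distributed and groups are independent, which these are not. *Egr1* in WT replicate 2 was at 91.22 CPM in RNA-seq (gap 0.863 of the range) and 158.6 CPM in Ribo-seq (0.912), above the other 3 WT hearts at 17.0 to 27.2 and 30.9 to 42.2 CPM. Both *Egr1* flags are for the same replicate number. *Fosl1* had 1 count in a single library of its group, at 0.0558 CPM in RNA-seq of KO replicate 3 and at 0.4821 CPM in Ribo-seq of WT replicate 2, with 0 in the other 3 hearts. A single count against 0 makes the gap the whole range, so that the *Fosl1* flags were fixed in advance. In disome-seq, which no comparison used, *Fosl1* had 9 counts over the 4 WT hearts, 8 of them in replicate 1, and 2 over the 4 KO hearts, although its RNA-seq count was at most 1 in every heart. *Myc* also had 8 of its 9 WT disome counts in replicate 1. That heart was the deepest of the WT hearts in disome-seq, at 149783 counts against a median of 76010.5.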

How the results depend on the processing

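Of the counts of members called, 216 stayed within 1.5 times the reported count, 12 were lower and 2 were higher. In RPL3L OE against control cells, 1 member was called by DESeq2 in RNA-seq and 1 in Ribo-seq (6 members had an adjusted p there), and 2 in Ribo-seq with library totals. Leaving out 1 library gave 1 to 3 members in RNA-seq, 1 to 4 in Ribo-seq and 0 to 1 in TE, and 1 to 4 in TE between control C2C12 cells and WT heart. Without the hearts that held airway RNA, an alternative chosen after the data had been seen, 1 member (*Nr4a1*) was called in heart RNA-seq. Between control C2C12 cells and WT heart, *Egr1* was at 0.539 in RNA-seq and 0.049 in Ribo-seq with library totals, and at 0.364 and 0.506 without the airway hearts, and ranged from -0.562 to 0.605 and from -0.655 to 0.547 with a library left out. *Ier3* mRNA was at 0.037 with no filter and 0.690 with library totals, and ranged from -0.158 to 0.030. In KO against WT hearts *Egr1* (-0.737 to 0.430), *Fos* (-0.857 to 0.442), *Ier3* (-0.052 to 0.186), *Myc* (-0.111 to 0.418) and *Klf6* (-0.055 to 0.141) mRNA changed sign with a library left out, *Egr1* (0.257), *Fos* (0.969) and *Klf6* (-0.120) without the airway hearts, and *Klf6* in its second transcript (-0.004), and none of these was called. *Klf6* mRNA in RPL3 OE against control cells was at -0.003, -0.005, -0.008 and -0.0 with no filter, the stricter filter, library totals and DESeq2, and ranged from -0.039 to 0.029. The cause of these changes was not tested.

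With the replicate number as a block (replicate block), 2, 3 and 4 members were called in RNA-seq of RPL3L OE against control, RPL3 OE against control and RPL3L OE against RPL3 OE cells, 4, 2 and 2 in Ribo-seq, 0 in TE and in the heart, TE included, and 3 in TE of control C2C12 cells against WT heart. *Myc* in RPL3L OE against control cells (edgeR adjusted p = 0.0514) and *Egr3* footprints in RPL3 OE against control cells (0.0501) lost their call. The numbers were not taken as pairs in the reported fits, TE included. In C2C12 cells the deviations of same-numbered samples correlated above 0.1 in 0 of 9 RNA-seq pairs. Between C2C12 RNA-seq and Ribo-seq it was 1 of 9, and 8 of 9 correlated best with their own number. Between heart RNA-seq and Ribo-seq it was 6 of 8, from 0.333 to 0.8, and the exceptions were KO replicates 2 (-0.749) and 3 (-0.791). For the heart the reported TE fit thus left a pairing unused, and the block took KO replicates 2 and 3 by numbers that went against each other. Low counts limit *Fos* and *Egr2* in C2C12 cells and *Egr2*, *Egr3*, *Maff* and *Myc* in hearts.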
